A study of Mus musculus with 26 samples.

Results

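The *Peg3* domain is an imprinted gene cluster on proximal chromosome 7 of the mouse, and 4 of its genes, *Peg3*, *Usp29*, *Zim1* and *Zfp264*, were followed here by their symbols. In the expression table of 24409 genes, 3 of the 4 had a row. No row carried the symbol *Zfp264*, which the GENCODE annotation places at chr7:6977246-6991087 as a transcribed pseudogene, and its level was not analysed here. The study compared mouse embryonic stem (ES) cells with and without ZFP57, a KRAB zinc finger protein, by RNA-seq and by chromatin immunoprecipitation. RNA-seq covered 3 wild-type (WT) and 2 ZFP57 KO libraries, all from male C57BL/6J lines grown from the inner cell mass of embryos that were collected as morulae at embryonic day 2.5 and cultured to blastocysts, and kept in 2i/LIF for no more than 15 passages. The KO is zygotic: in the embryo, the exons that encode the zinc fingers and the KRAB domain of ZFP57 were disrupted by gene targeting on both copies. ZFP57 binding was read in 3 WT and 2 KO libraries and deposited for the C57BL/6J lines as 1423 peaks. A second list, named for hybrid lines, holds 743 intervals, all of which are also in the first.

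Imprinted genes are expressed from 1 parental copy, and the choice depends on DNA methylation laid down in a germline at an imprinting control region. The control region of the *Peg3* domain is methylated on the copy from the mother, and it sits at the start of *Peg3* and *Usp29*, which are transcribed in opposite directions from the copy from the father. ZFP57 binds the methylated form of the hexanucleotide TGCCGC and, with the corepressor KAP1, keeps that methylation in place in the early embryo. *Peg3* encodes a large zinc finger protein known for roles in growth, maternal behaviour and cell death. *Usp29* encodes a deubiquitinating enzyme, *Zim1* a zinc finger protein expressed from the maternal copy in embryo and placenta, and *Zfp264* lies at the far end of the cluster.

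The ZFP57 peak of the control region spanned chr7:6729130-6729537 on mm10, 408 bp in the first intron of *Peg3*. It began 882 bp downstream of the start of *Peg3* and 1046 bp from the start of *Usp29*, and 163 bases lay between those start sites. A second peak lay in *Zim1*, at chr7:6677578-6677926, at -51.6 kb from the first, and all of its 349 bases were coding sequence of the last exon. Both intervals are shown because they are where ZFP57 was mapped within the domain, followed by the stretch that holds the starts of *Usp29* and *Peg3*. The sequences are those of GRCm38.p6 (RefSeq), written 5′ to 3′ on the strand named. Capitals in both peaks mark TGCCGC or its reverse complement GCGGCA, and capitals in the promoter mark CpG dinucleotides.
Peg3 peak, chr7:6729191-6729490, minus strand, 300 of its 408 bases: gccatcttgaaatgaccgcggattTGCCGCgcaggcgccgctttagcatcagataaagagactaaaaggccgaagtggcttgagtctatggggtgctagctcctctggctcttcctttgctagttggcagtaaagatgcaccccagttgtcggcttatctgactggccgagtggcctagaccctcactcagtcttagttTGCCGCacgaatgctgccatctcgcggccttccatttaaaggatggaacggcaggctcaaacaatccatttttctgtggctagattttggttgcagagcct
Zim1 peak, chr7:6677602-6677901, minus strand, 300 of its 349 bases: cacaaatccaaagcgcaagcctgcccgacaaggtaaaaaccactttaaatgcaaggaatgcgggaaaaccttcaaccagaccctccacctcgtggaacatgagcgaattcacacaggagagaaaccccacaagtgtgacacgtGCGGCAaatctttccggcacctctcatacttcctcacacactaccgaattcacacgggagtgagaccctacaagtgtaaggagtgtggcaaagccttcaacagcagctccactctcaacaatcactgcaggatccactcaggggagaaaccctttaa
Usp29 promoter, chr7:6730333-6730632, plus strand: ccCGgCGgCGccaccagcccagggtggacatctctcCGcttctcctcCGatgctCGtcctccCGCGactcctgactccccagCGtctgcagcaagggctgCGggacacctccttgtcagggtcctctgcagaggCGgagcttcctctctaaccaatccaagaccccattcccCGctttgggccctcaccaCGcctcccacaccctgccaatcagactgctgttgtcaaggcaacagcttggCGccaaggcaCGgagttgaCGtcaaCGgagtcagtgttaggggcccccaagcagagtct

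In the *Peg3* peak, TGCCGC occurred 2 times, both copies on the minus strand, which is the strand of *Peg3*, within 181 bp. The 8-letter sequence GCCATNTT, the core recognised by the zinc finger protein YY1, occurred 1 time on the same strand, at the start of the stretch shown, and did not overlap a hexanucleotide. With 100 bp added on each side, GCCATNTT occurred 2 times. Searched on both strands, TGCCGC was present in 1309 of the 1423 peaks (92.0%) and GCCATNTT in 235 (16.5%). Having 2 or more hexanucleotides placed the *Peg3* peak with 23.6% of the peaks, and a width of 408 bp or more with 22.8%. Its GC content of 54.4% was reached by 14.0% of peaks, against a median of 49.8%, and it held 19 CpG dinucleotides, where the median peak held 11.

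**Figure D1:**
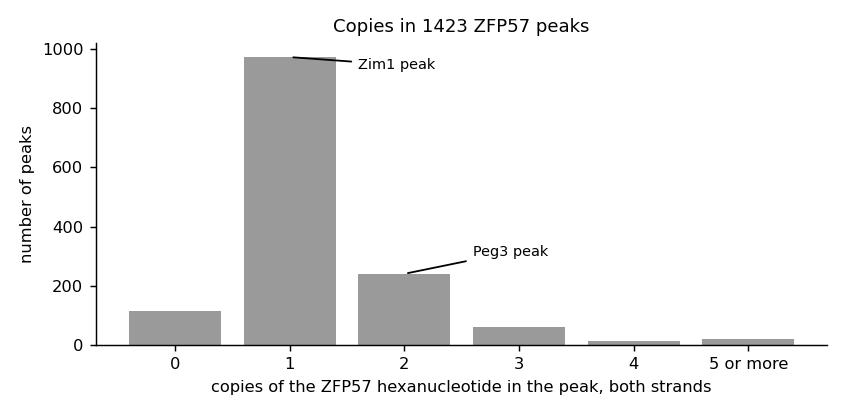
Number of ZFP57 peaks (vertical axis) by copies of TGCCGC on both strands within the peak (horizontal axis), for the 1423 peaks of the C57BL/6J list. Most peaks, 973, held 1 copy like the *Zim1* peak, and the *Peg3* peak was among 240 with 2.

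The peak in *Zim1* held 1 hexanucleotide, 12 CpG dinucleotides and no GCCATNTT, with a GC content of 50.4%. It was the 1 peak within 1 Mb of the *Peg3* peak that was not among the intervals of the hybrid list, which repeats 52.2% of the peaks of the C57BL/6J list. The libraries used here include none for ZFP57 in hybrid lines, so a place in that list is not read as a separate measurement of binding. None of the *Peg3* peak was soft-masked as repeat sequence in the reference, and 6.88% of the *Zim1* peak was. The other 3 peaks within 1 Mb lay outside the 4 genes. One, at chr7:6132771-6132958, lay in coding sequence of the zinc finger gene *Zfp787* and held 2 hexanucleotides. Another, at chr7:6624069-6624494, lay 27254 bp from *Zim2*, was 99.1% repeat sequence and held 1. The last, at chr7:7020401-7020669, lay 17310 bp from *Aurkc*, was 84.4% repeat sequence and held none. Having 4 other peaks within 1 Mb was shared by or exceeded at 232 of the 1423 peaks (16.3%), and the median peak had 1. The promoter windows of *Peg3* and *Usp29*, 300 bases each that overlap one another, held no TGCCGC and 13 and 17 CpG dinucleotides. The window of *Zim1* held 1 TGCCGC, which 11.6% of 32851 promoter windows of that length held. The peak lists carry no score, read count or replicate, so the strength of binding at these sites and its level in KO cells were not analysed here.

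*Peg3* and *Usp29* moved in opposite directions without ZFP57. *Peg3* was 1.61 times as high in KO as in WT cells, and *Usp29*, which starts next to it, was 2.90 times lower. *Zim1* was expressed at a low level in both genotypes, near the filter of the test. Levels are in FPKM, fragment numbers scaled by transcript length and library size, and changes are differences of log2(FPKM + 0.1), KO minus WT, which understate the change of low genes. They were tested with limma over the 14612 genes that averaged 0.1 FPKM or more, and a gene is called when its Benjamini-Hochberg adjusted p is under 0.05. As many as 41.1% of the tested genes were called, 18.8% higher and 22.3% lower, and this is the background for each count below. The WT and KO libraries did not overlap for 63.4% of the tested genes, with KO higher for 30.3% and lower for 33.1%.

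The 3 WT libraries had 33.8, 35.9 and 38.0 FPKM of *Peg3*, and the 2 KO libraries had 61.7 and 54.2 FPKM. Both KO libraries lay above all WT libraries, and the means were 35.9 ± 2.1 (SD, n = 3) and 57.9 ± 5.30 FPKM (SD, n = 2). The change was 0.69 on the log2 scale (SE 0.073, limma adjusted p = 0.00115). An increase of at least this size was seen in 6.41% of the tested genes, and a change of at least this size in either direction in 17.4%. *Peg3* was already an abundant transcript in WT cells, at place 1089 of the 24409 genes by mean level, and it stood at place 609 in KO cells.

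*Usp29* was at 1.11, 1.13 and 1.41 FPKM in WT and at 0.47 and 0.37 FPKM in KO. Every WT library was above both KO libraries, with means of 1.22 ± 0.168 (SD, n = 3) and 0.42 ± 0.0707 FPKM (SD, n = 2). The change was -1.34 on the log2 scale (SE 0.17, limma adjusted p = 0.00196), a size reached in either direction by 4.52% of the tested genes. Its place among all genes went from 10240 in WT to 12047 in KO.

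*Zim1* was at 0.08, 0.12 and 0.11 FPKM in WT and at 0.07 and 0.03 FPKM in KO. The KO values were below the WT values, but both lay next to the 0.1 FPKM that a gene had to average to be tested, and *Zim1* did not reach it. In a fit with no such filter its change was -0.45 (SE 0.17, limma adjusted p = 0.114), so no difference was detectable at this depth. From the steps between low FPKM values, 1 fragment on a transcript of 1 kb was inferred to be worth 0.0170 to 0.0197 FPKM, depending on the library, which puts 15, 25 and 20 fragments on *Zim1* in WT and 13 and 6 in KO. On the same scale, with 1 RefSeq transcript taken for each gene, *Peg3* rested on 12363 to 21395 fragments and *Usp29* on 458, 497 and 536 in WT and 184 and 153 in KO. Both members that could be tested were thus called, 1 in each direction, where 41.1% of all tested genes were.

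**Figure D2:**
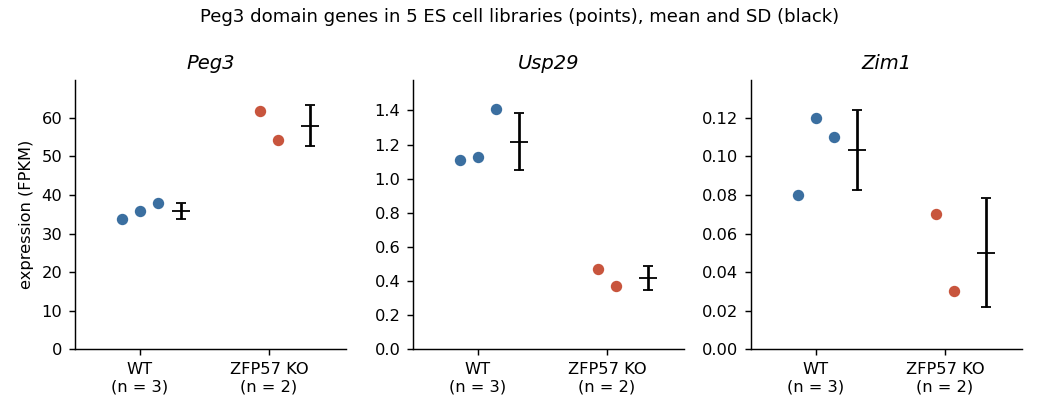
Expression in FPKM (vertical axes, each from 0) of *Peg3*, *Usp29* and *Zim1* in the 3 WT and 2 ZFP57 KO libraries (points), with the mean and SD of each group in black. KO libraries sat above WT for *Peg3* and below WT for *Usp29*, while all *Zim1* values lay between 0.03 and 0.12 FPKM.

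Since *Peg3* and *Usp29* share a control region, their balance was also read within each library. The FPKM of *Peg3* was 30.5, 31.7 and 27.0 times that of *Usp29* in WT, and 131 and 146 times in KO. The KO ratios could not overlap the WT ratios, since the libraries had already separated in opposite directions for these genes. The balance thus restates the changes of both genes and is no separate test. On the log2(FPKM + 0.1) scale *Peg3* exceeded *Usp29* by 4.78 ± 0.109 in WT (SD, n = 3) and by 6.81 ± 0.0647 in KO cells (SD, n = 2). The gap widened by 2.03 (exact permutation test, two-sided, p = 0.1, the smallest that 10 splits of 5 libraries allow). Since the lines are inbred, the table does not separate the parental copies, and whether a silent copy was switched on or an active one changed was not analysed here. In RNA from bulk cultures, a change in the share of cells that express a gene and a change in RNA per cell cannot be told apart.

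The rows for *Usp29* and *Zim3* may share reads. *Zim3*, a gene on the opposite strand, shares 2582 exonic bases with *Usp29*, which is 17.5% of the exonic bases of *Usp29* and 80.1% of those of *Zim3*, and includes 2524 of the 2610 coding bases of *Usp29*. *Zim3* was at 0.32, 0.31 and 0.36 FPKM in WT and at 0.07 and 0.03 FPKM in KO, a change of -1.53 (SE 0.21, limma adjusted p = 0.00269). Whether fragments were counted by strand is not given in the sources used here, and without strand the reads of the shared bases cannot be told apart. In the same way the antisense transcript *Peg3os* lies wholly within exons of *Peg3*, over 865 bases. It was at 0.15, 0.24 and 0.11 FPKM in WT and at 0.33 and 0.17 FPKM in KO, its groups overlapped, and it was not called (change 0.38, SE 0.31, limma adjusted p = 0.363).

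Across the 1 Mb on either side of the *Peg3* peak, losses of expression outnumbered gains. Of 39 neighbouring genes in the table, 19 were tested, 1 was called higher, 8 lower and 10 were not called. That is 47.4% called against 41.1% in the whole table, and the median change of the 19 was -0.28, against -0.013 over all tested genes and 0.0042 over 1164 genes of chromosome 7. Most of the 20 others are olfactory and vomeronasal receptor genes at or near 0 in these cells. *Peg3* was thus 1 of the 2 genes called higher in this interval, the other being *Gm6792*, at 12.7, 14.6 and 11.4 FPKM in WT and 20.2 and 17.0 in KO (change 0.52, limma adjusted p = 0.0154). Without KO replicate 1 the call of *Gm6792* was lost.

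Neighbours with larger decreases than *Usp29* lay on both sides of the peak. *Zscan5b*, a SCAN zinc finger gene at -489.7 kb from the peak, was at 6.64, 5.86 and 6.31 FPKM in WT and 0.67 and 0.33 FPKM in KO (change -3.47, limma adjusted p = 4.2e-04). *Aurkc*, which encodes an Aurora kinase of meiosis and lies at 266 kb on the other side, was at 9.68, 9.82 and 11.8 FPKM in WT and 1.09 and 1.06 FPKM in KO (change -3.16, limma adjusted p = 2.3e-04). *Nlrp4c*, of a gene family known from oocytes, was at 0.94, 0.96 and 1.17 FPKM in WT and 0.10 and 0.06 FPKM in KO (change -2.64, limma adjusted p = 4.5e-04). For each of these genes every WT library was above both KO libraries. *Zim2*, a zinc finger gene on the far side of *Zim1* from *Peg3*, was at 1.02, 0.66 and 0.93 FPKM in WT and 0.38 and 0.34 FPKM in KO (change -1.06, limma adjusted p = 0.00878). Without KO replicate 2 it was not called (limma adjusted p = 0.0512). The smaller decreases were those of *Clcn4-2* (-0.60), *Zfp667* (-0.36) and *Zfp773* (-0.67). *Zfp773* was named after its values were seen, and each of these calls was lost in some of the alternatives described at the end. Of the 13 neighbours taken as zinc finger genes by name (Zfp, Zscan or Zim), all tested, 5 were lower, 8 were not called and none was higher. *Zim3*, whose row may share reads with *Usp29*, is among the 5. However, *Zfp78* was called higher under quantile normalization and without KO replicate 2.

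**Figure D3:**
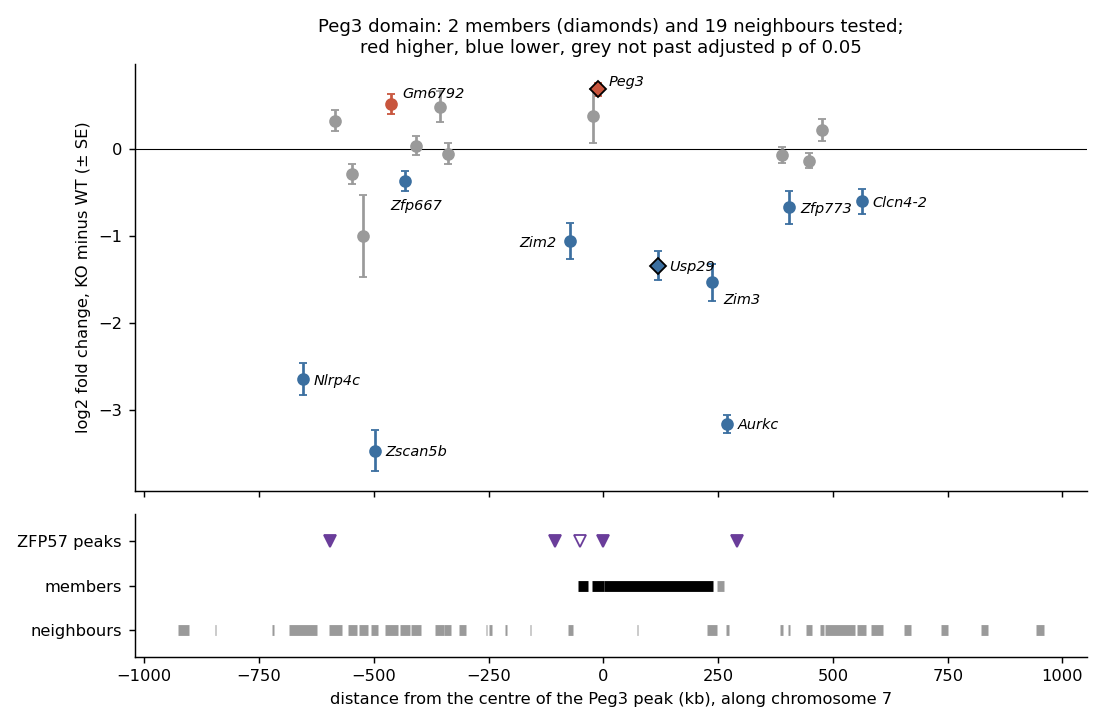
Upper panel: log2 fold change, KO minus WT, with its SE (vertical axis) against the distance of the gene's middle from the *Peg3* peak in kb (horizontal axis), for *Peg3* and *Usp29* (diamonds) and the 19 tested neighbours. Lower panel: spans of the members (black, with *Zfp264* paler), of the neighbours (grey) and the 5 ZFP57 peaks, open where the peak is not in the hybrid list. *Peg3* and *Gm6792* were higher, and the lowest points were *Zscan5b*, *Aurkc* and *Nlrp4c*.

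A list of other genes in or near the *Peg3* domain was also counted, of which *Zim3* and *Peg3os* lie within the span of the 4 members and the rest outside it. All 7 in the table were tested and are also among the neighbours above, and *Zim2*, *Zim3*, *Zscan5b* and *Aurkc* were lower and none was higher, with a median change of -1.06. The list was written with earlier results of these data known, so its counts and median depend on which genes were picked. It leaves out *Gm6792*, which was called higher and lies nearer the peak (-447.3 kb) than *Zscan5b*. *Peg3os* and the zinc finger genes *Zfp78* and *Zfp28* were not called. *Zfp78* was at 0.86, 1.02 and 0.84 FPKM in WT and at 1.55 and 1.10 FPKM in KO (change 0.49, limma adjusted p = 0.0706). Under quantile normalization and without KO replicate 2, *Zfp78* was called higher.

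Paternally expressed genes of other maternally methylated control regions gave a context for the change of *Peg3*. Of 22 such genes, 20 were tested, 10 were called higher, 4 lower and 6 were not called, with a median change of 0.46. Among those higher were *Peg10* (1.41), derived from a retrotransposon, *Sgce* (0.87), which encodes a sarcoglycan, *Mest* (0.78), the zinc finger gene *Plagl1* (0.75) and *Zdbf2* (0.74). The other 5, *Nespas*, *Snrpn*, *Snurf*, *Impact* and *Kcnq1ot1*, lay between 0.38 and 0.70, and *Snrpn* and *Snurf* come from overlapping transcripts. *Peg3*, at 0.69, lay among these increases. Those lower were *Inpp5f* (-1.19), a phosphatase gene of which 1 isoform is known to be imprinted, *Peg12* (-0.91), the noncoding RNA *Airn* (-0.87) and *Zrsr1* (-0.32). *Usp29*, at -1.34, was lower than these on this scale. By the ratio of mean FPKM *Inpp5f* was 3.28 times lower in KO and *Usp29* 2.90 times, but the row of *Inpp5f* does not separate its imprinted isoform. The larger decreases were in genes of low level. On average *Inpp5f* was at 0.427 FPKM in WT and 0.13 in KO, *Peg12* at 1.16 and 0.565, and *Airn* at 0.237 and 0.085. With a filter of 1 FPKM, 13 of the listed genes were tested, 9 were higher and 1 was lower. *Zrsr1* and the group of 5 were named after their values were seen.

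Genes for proteins that act on DNA methylation or at control regions moved in both directions where they were called. The list is named keepers of methylation below, a name too narrow for some of its genes, such as *Yy1* and *Ctcf*. Of 17, all tested, 5 were higher, 4 lower and 8 not called, with a median change of 0.0041. The decreases were *Dppa3* (-2.30), a protector of maternal methylation in the zygote, the DNA methyltransferase *Dnmt3a* (-1.71), the HP1 gene *Cbx1* (-0.59) and *Trim28* (-0.16), which encodes KAP1. The increases were the HP1 genes *Cbx5* (0.47) and *Cbx3* (0.37), *Uhrf1* (0.22), *Smchd1* (0.17) and *Dnmt1* (0.13), the last named after its value was seen. *Zfp445*, which acts beside ZFP57 at control regions, was at 15.4 FPKM on average in both groups and was not called (limma adjusted p = 0.952). *Zfp57* itself was at 75.9, 72.3 and 70.5 FPKM in WT and at 19.0 and 21.6 FPKM in KO (change -1.84, limma adjusted p = 2.3e-04), so its transcript was lower but still counted in the KO libraries. By western blot of whole cell extracts, the paper found the ZFP57 protein to be absent from the mutant lines.

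Reported partners and substrates of the PEG3 and USP29 proteins were called about as often as all tested genes. Of 12 listed genes 11 were tested, 2 were higher, 3 lower and 6 not called (45.5% called, against 41.1% in the table), with a median change of 0.093. *Trp53*, whose protein USP29 is reported to stabilise, was at 112, 113 and 113 FPKM in WT and at 79.1 and 74.4 FPKM in KO (change -0.56, limma adjusted p = 4.5e-04). *Becn1*, an autophagy gene, changed by -0.68 and *Clspn*, a replication checkpoint gene that encodes claspin, by -0.27. *Myc* (1.15) and *Traf2* (0.37), which encodes a partner of PEG3 in NF-kappaB signalling, were higher. Without KO replicate 2, 2 of the 11 were called, both lower. Decorin (*Dcn*) was listed at 0 in all libraries.

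**Figure D4:**
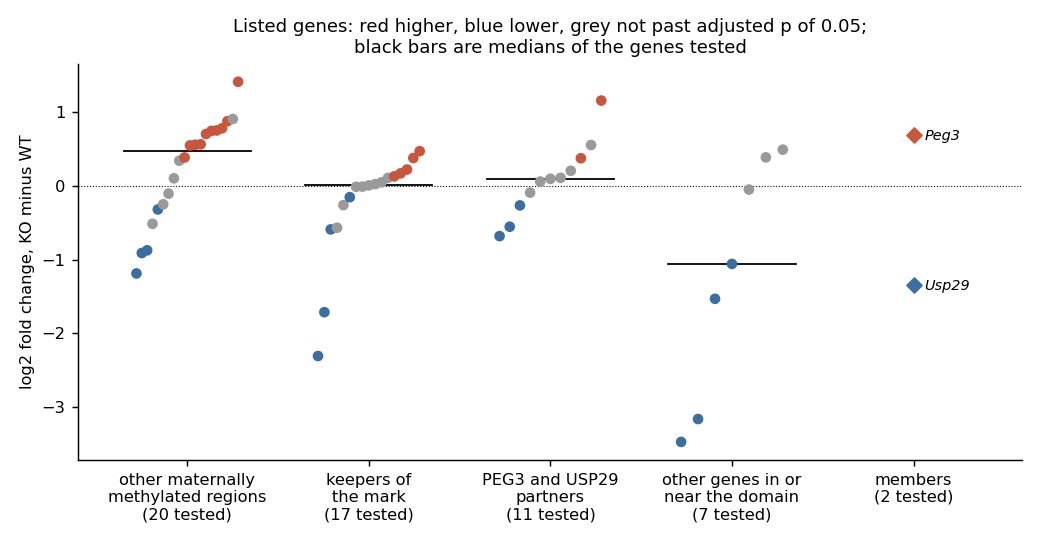
Log2 fold change, KO minus WT (vertical axis), of the tested genes of 4 lists and of *Peg3* and *Usp29* (diamonds), with red for higher, blue for lower and grey for not called, and a black bar at each list's median. The medians were 0.46, 0.0041, 0.093 and -1.06 from left to right.

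Genes elsewhere in the genome had profiles over the 5 libraries close to those of *Peg3* and *Usp29*. Likeness was the distance between log2(FPKM + 0.1) profiles after centring each on its WT mean. Closest to *Peg3*, at distances of 0.0973 to 0.113, were the zinc finger gene *Zbtb12*, the channel gene *Panx1*, the nuclease gene *Dnase2a*, *Tmem125* and *Mcu*, the pore of the mitochondrial calcium uniporter. Closest to *Usp29*, at 0.0924 to 0.156, were the claudin gene *Cldn20*, *4833417C18Rik*, *Doc2a*, the amino acid transporter gene *Slc7a2* and *Ctcfl*, the germline paralogue of *Ctcf*. *Doc2a* is the 1 of these 10 that also lies on chromosome 7. *Ctcfl* was at 0.19, 0.18 and 0.25 FPKM in WT and at 0.02 and 0.01 FPKM in KO. Because the added 0.1 FPKM shrinks changes of low genes, likeness on this scale is not likeness of fold change. By the ratio of mean FPKM, *Ctcfl* was 13.8 times lower in KO and *Doc2a* 4.37 times, against 2.90 times for *Usp29*. *Cldn20*, *4833417C18Rik* and *Slc7a2* were 2.65 to 3.63 times lower.

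The libraries carried the markers of naive ES cells. The summed level of 10 such markers was 719 to 741 FPKM in WT and 802 to 870 FPKM in KO, with *Pou5f1*, *Klf4*, *Esrrb*, *Tfcp2l1* and *Tbx3* higher and *Prdm14* and *Klf2* lower in KO. *Peg3* is also known to be high in neural progenitors and fibroblasts. The 4 neural markers summed to 2.84 to 3.26 FPKM in WT and 2.07 to 2.16 FPKM in KO, with *Sox1* higher (0.08 to 0.10 against 0.47 and 0.67 FPKM) and *Nes* lower. The 5 fibroblast markers summed to 0.51 to 0.58 FPKM in WT and 0.42 to 0.58 FPKM in KO, with *Col3a1* at 0 in every library, *Col1a2* at no more than 0.01 FPKM and none called. Among the primed epiblast markers, which summed to 25.0 to 30.3 FPKM in WT and 16.6 to 22.4 FPKM in KO, *Fgf5* was higher and *Lef1* and *Pou3f1* were lower. The 6 trophoblast markers, most of whose level was *Tfap2c*, summed to 15.8 to 18.0 FPKM in WT and 13.9 to 15.7 FPKM in KO, with *Eomes* higher (0.38 to 0.60 against 2.13 and 2.40 FPKM) and *Tfap2c* lower (16.4 against 12.2 FPKM on average). The 5 primitive endoderm markers summed to 0.62 to 0.68 against 0.85 to 1.31 FPKM, with *Sox7* higher, and the 4 mesendoderm markers to 1.49 to 1.79 against 1.89 to 2.75 FPKM, with *T* higher. The part of these shifts in the changes of *Peg3* and *Usp29* was not tested.

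The direction of both members held under the alternatives in processing that could be run. *Peg3* changed by 0.59 to 0.78 and was called under all 14, with limma adjusted p from 7.3e-04 to 0.0109. *Usp29* changed by -0.64 to -1.51 and was called under all 13 that tested it, with limma adjusted p from 0.00185 to 0.0218. The smallest change of *Usp29* came with a pseudocount of 1 FPKM, close to its own level.

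**Figure D5:**
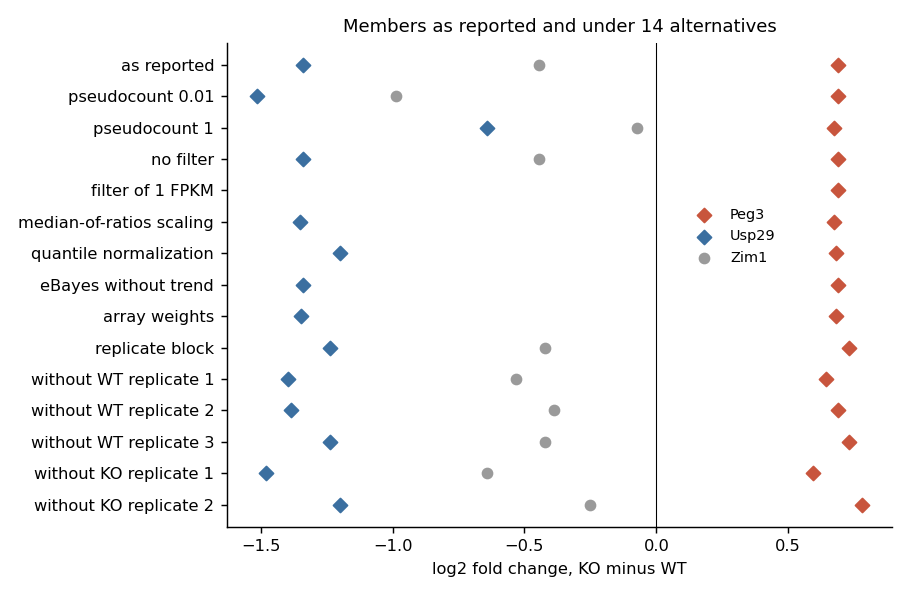
Log2 fold change, KO minus WT (horizontal axis), of *Peg3*, *Usp29* and *Zim1* as reported and under each alternative (vertical axis). All *Peg3* values lay above 0 and all *Usp29* and *Zim1* values below 0, and *Zim1* ranged from -0.99 to -0.072 with the pseudocount.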

How the data were processed

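RNA was depleted of ribosomal RNA and sequenced as paired reads of 150 bp, and ZFP57 ChIP libraries as reads of 100 bp. The authors deposited expression as FPKM per gene and library, rounded to 2 decimals, with no counts, and ZFP57 peaks as mm10 intervals without scores (uniquely aligned reads, called in 2 or more WT replicates). The submitters' processing notes name BWA 0.6.2, STAR 2.5.2, MACS2 2.1.0, Trim Galore 0.2.7, FastQC 0.11.5 and Picard. The annotation and strand setting of the counting, and how the hybrid list was made, are not given in the sources used here.

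Genes that averaged 0.1 FPKM or more were fitted on log2(FPKM + 0.1) with limma 3.58.1 in R 4.3.3 (eBayes with trend, 3 WT against 2 KO libraries, no covariate), with Benjamini-Hochberg adjustment over all 14612 and a threshold of 0.05. The fit was tested on simulated data. Single values over libraries had an exact permutation test (two-sided), which cannot go below 0.1 here. The WT and KO libraries come from lines named separately, and p-values measure the spread between those lines. Sequencing depth was inferred, after the data were seen, from the step of FPKM times length over genes of 60 to 400 bp: 90.2 to 94.2% of those values lay within 0.1 of a whole fragment number, where chance gives 20%. Fragment numbers of the members took 1 RefSeq transcript for each, since the table does not separate isoforms, and cover counting only. The depth of the ChIP libraries is unknown. Genes were placed on GRCm38.p6 by symbol (23192) or synonym (1096). Peaks were read with samtools 1.23.1, and starts are given from 1. Python 3.11.15, pandas 2.3.3, numpy 2.4.6, scipy 1.17.1 and matplotlib 3.10.9 were used.

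The members, lists, tests and alternatives were chosen with earlier results of these data known. Genes named are the members, *Zfp57*, the 5 nearest profiles to *Peg3* and to *Usp29*, the 3 highest and 3 lowest called neighbours within 1 Mb, up to 8 called genes per list by size of change, and the cell markers; others are said to be named after their values were seen, or are given as uncalled members of their list. KAP1 and H3K9me3 libraries and the hybrid lines' libraries were not used here.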

Additional observations from a re-analysis of the deposited data

How the results depend on the processing

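*Peg3*, *Usp29* and *Zfp57* kept their direction and their call under every alternative that gave a value. *Usp29* had no value with a filter of 1 FPKM, *Zim1* had none under the other filter, scaling and variance settings, which act on tested genes, and *Zfp264*, which has no row, had none at all. *Zim1* moved from -0.45 to -0.99 with a pseudocount of 0.01 and to -0.072 with 1. The gap between the changes of *Peg3* and *Usp29*, 2.03, became 2.20 with a pseudocount of 0.01, 1.31 with 1 and 1.88 with quantile normalization. Leaving out 1 library at a time gave 0.59 to 0.78 for *Peg3*, -1.48 to -1.20 for *Usp29*, -0.64 to -0.25 for *Zim1*, 1.97 to 2.07 for the gap and -1.93 to -1.75 for *Zfp57*. It gave 4146 to 4831 called genes in the table against 6002, 6 to 8 neighbours against 9, and 11 to 13, 6 to 8, 2 to 6 and 4 to 4 genes, not always the same ones, of the lists for other control regions, keepers of methylation, protein partners and the *Peg3* domain. Without KO replicate 2 the 4 of the *Peg3* domain list were *Zscan5b*, *Aurkc* and *Zim3* lower and *Zfp78* higher, with *Zim2* no longer called, and quantile normalization added *Zfp78* as higher to the 4 lower genes. The lowest count for the partners, 2 against 5, came without KO replicate 2.

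With a filter of 1 FPKM, which leaves fewer genes to test, 5 neighbours and 2 genes of the *Peg3* domain list were called. A window of 2 Mb held 16 called neighbours of 40 tested (40%, against 47.4% for 1 Mb and 41.1% in the table), 14 of them lower. Quantile normalization called 3 neighbours higher and 7 lower. The call of *Gm6792* was lost without KO replicate 1 and under the replicate block (limma adjusted p up to 0.0885), that of *Zfp667* held under 5 of 14 alternatives, that of *Zfp773* under 6 of 13 and that of *Clcn4-2* under 10 of 14. Called peaks in the domain numbered 2, with 1 in the hybrid list and 4 with 100 kb on each side, and GCCATNTT went from 1 to 2 copies in the widened *Peg3* peak.

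WT and KO libraries share the numbers 1 and 2, but they come from different lines. The deviations of same-numbered libraries correlated at -0.068 and -0.036 over genes, and the numbers do not pair the samples. With a replicate block *Peg3* changed by 0.73 (limma adjusted p = 0.0109), *Usp29* by -1.24 (limma adjusted p = 0.0218) and *Zfp57* by -1.87, while 3012 genes in the table were called (1379 higher), with 5 neighbours, 5 keepers of methylation and 3 partners. The block leaves out WT replicate 3.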
